A study of Mus musculus with 816 samples.

Results

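The effect of TGFb on microglia held in LPS for 72 h was measured by comparing cultures that received LPS_lo with TGFb with cultures that received LPS_lo alone, gene by gene. Members were chosen from the sample labels, as the cultures labelled with these treatments at 72 h. They were 8 LPS_lo + TGFb cultures and 11 LPS_lo cultures, 19 of the 816 samples of the series, of which 784 were cultures. The cells were microglia of newborn mice from a commercial source, kept as small cultures in multiwell plates, exposed to a stimulus and profiled by sequencing of amplified RNA. The LPS_lo cultures received LPS at 0.00001 µg/µl for 72 h. The label of the LPS_lo + TGFb cultures gives a single dose, also 0.00001 µg/µl, for 72 h, and no separate dose of TGFb. Comparison groups at 72 h were 25 untreated cultures, 4 cultures with TGFb alone at 0.0001 µg/µl, 13 cultures with LPS_hi, which is LPS at 0.0001 µg/µl, and 5 LPS_lo + IL10 cultures, whose label also gives 0.00001 µg/µl alone. At 24 h, 8 cultures with TGFb alone at 0.0001 µg/µl were compared with 40 untreated cultures.

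LPS, a component of the outer membrane of Gram-negative bacteria, is bound by Cd14 and by the receptor Tlr4 with its partner Ly96, and drives NF-kB and interferon responses in microglia. TGFb binds a pair of receptor kinases, encoded by Tgfbr1 and Tgfbr2, which phosphorylate Smad2 and Smad3, and these enter the nucleus with Smad4. In the brain TGFb is known for keeping the resting gene programme of microglia, and it is classed as an anti-inflammatory cytokine.

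Values were read as CPM, reads of a gene for every 1000000 mapped reads (M), and fold changes compare group means of log2(CPM + 1). The added 1 shrinks fold changes where levels are low. The depth was 1.32 to 9.43 M mapped reads in the LPS_lo + TGFb cultures, with a median of 5.08 M, and 1.05 to 11.3 M in the LPS_lo cultures, with a median of 5.91 M. All cultures at 72 h came from 1 cell lot. The LPS_lo + TGFb cultures were on plates B and D, with 4 on each, and the LPS_lo cultures were on plates A, B and D, with 4, 4 and 3. Plate letters are those of the table header, where the names of plates A and B carry one date and those of plates C and D a later one, so plates B and D also differ by date. Cultures on plate D were less alike than those on plate B. The mean Pearson r across genes of an LPS_lo + TGFb culture with the others of its group was 0.773 to 0.819 on plate D and 0.834 to 0.868 on plate B. No pair of cultures in a group was a duplicate, and the closest pair had an r of 0.958. The labels do not say whether cultures came from separate preparations, so p-values measure the spread between wells. In the fit at 72 h that spread was pooled over 66 cultures in 6 groups. No term for plate was used there, so differences between plates are part of it.

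The cultures carried microglia markers. The summed level of 10 markers was 5249 to 8308 CPM with a median of 6451 in the LPS_lo + TGFb cultures, and 3024 to 4885 CPM with a median of 3912 in the LPS_lo cultures. The most abundant was Csf1r, the receptor for the survival factor Csf1, at a mean of 3083 CPM with TGFb and 2181 CPM without. P2ry12, a purine receptor of resting microglia, was low, at 0 to 5.23 CPM with a median of 1.31 with TGFb and 0 to 4.24 CPM with a median of 0.892 without. Of the 10 markers 4 rose with TGFb, among them Tmem119, Cx3cr1 and Trem2. In bulk RNA, fewer cells and less RNA per cell cannot be told apart.

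Most markers of other cell types were low, and 3 of them rose. Of 8 oligodendrocyte lineage markers 2 passed the filter on low values, and Cspg4, a surface proteoglycan, was the most abundant of them with TGFb. Cspg4 lay at 28.5 to 118 CPM with a median of 65.6 with TGFb and 0.4 to 9.02 CPM with a median of 3.99 without. The summed level of that list was 47.5 to 126.3 CPM with TGFb and 3.60 to 30.5 CPM without, while Olig1 and Mog were at 0 in all 19 cultures and Olig2, Sox10 and Pdgfra had means under 1 CPM in both groups. S100b, an astrocyte marker, had a mean of 6.19 CPM with TGFb and 2.36 CPM without, and a log2 fold change of 1.25 (SE 0.35, limma adjusted p = 0.026). The summed astrocyte markers were 5.36 to 37.2 CPM with TGFb and 0 to 45.5 CPM without, with Aqp4 at 0 throughout. Slc1a3, also of that list, had means of 3.76 CPM with TGFb and 4.99 CPM without. Flt1, an endothelial marker, had means of 23.6 and 8.15 CPM and a log2 fold change of 1.80 (SE 0.51, limma adjusted p = 0.031), while the endothelial sum, mostly Pecam1, was 51.5 to 118.9 CPM with TGFb and 34.4 to 91.8 CPM without, with Tek at 0 throughout. The summed fibroblast and mural cell markers stood out in 1 culture, LPS_lo + TGFb replicate 6, at 276.7 CPM against 4.27 to 24.5 CPM in the LPS_lo cultures and a median of 6.52 CPM with TGFb. Without that culture 280 genes were called in the comparison with LPS_lo. Perivascular macrophage markers, mostly Pf4, summed to 32.2 to 170.5 CPM with TGFb and 44.4 to 81.2 CPM without. The part of other cells in these levels was not tested. No gene of the neuron, fibroblast and mural cell, neutrophil, monocyte, perivascular macrophage and dendritic cell lists was called, and no T and NK cell or B cell marker passed the filter.

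TGFb changed a limited set of genes in LPS_lo cultures. A gene was called at a Benjamini-Hochberg adjusted p under 0.05 in limma, over 11838 genes tested, with a log2 fold change of at least 1 in either direction. By this rule 314 genes (2.65%) were called, of which 164 (1.39%) were higher and 150 (1.27%) were lower with TGFb. The median log2 fold change of all genes tested was 0.01. TGFb pathway feedback genes, resting microglia genes and matrix genes were among those that rose. CC chemokines, C-type lectins, Marco and Gdf15 were among those that fell. No interferon-stimulated gene and no inflammatory cytokine of the lists was called, but at 2.65% lists of that size would hold few calls or none. Values of the groups did not overlap in 112 of the 314 genes called, and in 138 (1.17%) of all genes tested.

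The number of calls depended on the plate. Within plate B alone, 880 genes were called, 235 of them among the 314, and within plate D alone 46 were called, 38 of them among the 314. In middle wells alone 553 were called. With plate in the model, 398 genes were called, of which 284 were among the 314. Of 67 genes called among those named, 46 were tested and not called on plate D alone and 7 were tested and not called on plate B alone, while none of those tested changed direction. Ak4, Mmp2, Apoc1, Cdh1 and Cd5l did not pass the filter on plate D, nor Il10 and Cdh1 on plate B. These 3 restrictions were chosen after seeing the data.

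The rises with the largest log2 fold change were in genes of varied function. Gatm, the first enzyme of creatine synthesis, lay at 353 to 2038 CPM with a median of 1001 in the LPS_lo + TGFb cultures. In the LPS_lo cultures it lay at 4.1 to 68.7 CPM with a median of 24.5. All 8 cultures with TGFb were above all 11 without, and the log2 fold change was 5.09 (SE 0.76, limma adjusted p = 2.1e-06), the largest rise among the genes named by rule. Tmeff1, a membrane protein with follistatin domains, lay at 47.5 to 78.7 CPM with a median of 61.5 with TGFb and at 0 to 9.6 CPM with a median of 0.799 without. It did not overlap, with a log2 fold change of 4.80 (SE 0.58, limma adjusted p = 7.4e-09). Igfbp5, a binding protein for insulin-like growth factors, had a log2 fold change of 4.64 (SE 0.58, limma adjusted p = 1.5e-08), from a mean of 0.655 CPM to 38.3 CPM. Adam19, a membrane metalloprotease, rose by 3.96, Pald1 by 3.83, and the glycosyltransferase gene Gcnt2 by 3.84 on the log2 scale. The transcription factor gene Sox4 had a log2 fold change of 3.77 (SE 0.57, limma adjusted p = 2.5e-06), with 7 of the 8 cultures above every LPS_lo culture and 1 at 9 CPM. RP24-295A5.2 and Cspg4 completed the 12 largest rises, with Tgfbi, Pmepa1 and Tmem119.

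Some feedback genes of the TGFb pathway rose. Of 22 listed feedback inhibitors and early targets, 21 were tested, 4 rose, none fell, 17 did not pass, and the median log2 fold change was 0.27 against 0.01 for all genes. Among all genes 1.39% were called higher. Pmepa1, an inhibitor that holds Smads away from the receptor, lay at 352 to 511 CPM with a median of 482 in the LPS_lo + TGFb cultures. Its LPS_lo cultures lay at 6.39 to 54.6 CPM with a median of 28.1. Every culture with TGFb was above every culture without, and the log2 fold change was 4.35 (SE 0.56, limma adjusted p = 3.1e-08). Tgfbi, a secreted matrix protein named for its induction by TGFb, lay at 288 to 682 CPM with a median of 497 with TGFb and at 14.3 to 58 CPM with a median of 36.9 without. These values did not overlap either, and the log2 fold change was 3.91 (SE 0.43, limma adjusted p = 3e-10). Smad7, which directs receptor breakdown, lay at 6.17 to 134 CPM with a median of 23.9 with TGFb and at 0 to 13.3 CPM with a median of 3.2 without. The groups overlapped, with 6 of 8 cultures above the highest LPS_lo culture, and the log2 fold change was 2.93 (SE 0.59, limma adjusted p = 0.00057). Ski, a Smad corepressor, had a log2 fold change of 1.49 (SE 0.38, limma adjusted p = 0.011), a call that was lost without the cultures under 2 M mapped reads.

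Among 11 receptors and Smads, 10 were tested and 1 rose, with a median log2 fold change of 0.24. Tgfbr1, the signalling receptor, lay at 90.4 to 129 CPM with a median of 98.8 with TGFb, and at 0 to 23.7 CPM with a median of 12 without. The groups were separate, and the log2 fold change was 3.34 (SE 0.42, limma adjusted p = 1.9e-08). Tgfbr2, the ligand-binding receptor, had means of 197 and 109 CPM and did not pass, at 0.87 (SE 0.33, limma adjusted p = 0.157). Smad2, Smad3 and Smad4 had log2 values of 0.27, 0.13 and -0.24. None of the 5 tested of 12 ligand and activation genes was called, and Tgfb1 itself had means of 54.3 and 68.3 CPM. Its log2 value was -0.11. Tgfb2 and Tgfb3 did not pass the filter on low values.

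**Figure D1:**
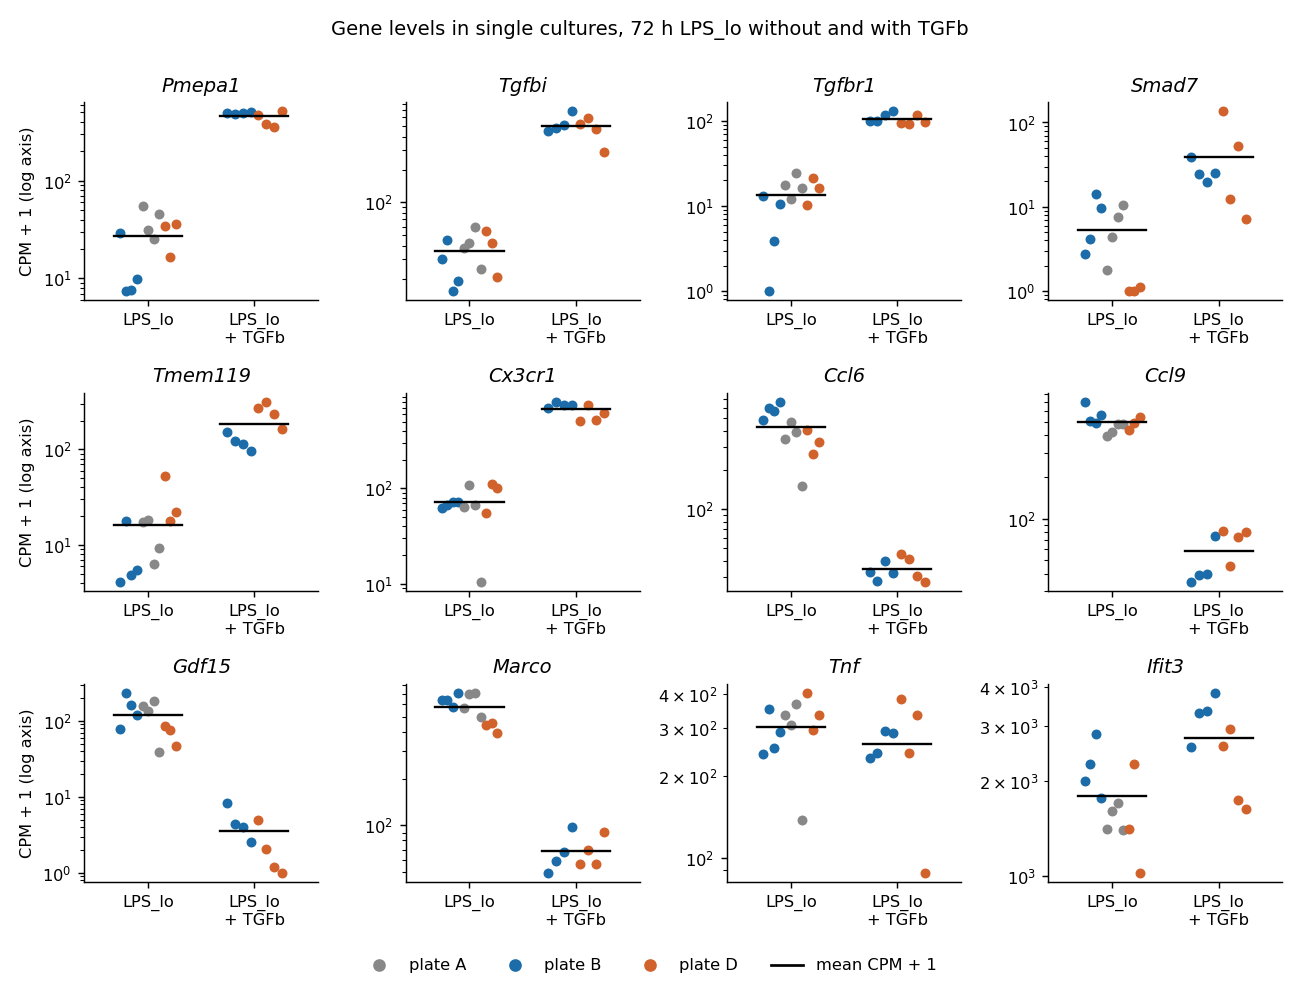
Levels of 12 genes in single cultures at 72 h, as CPM + 1 on a log axis, with LPS_lo on the left and LPS_lo + TGFb on the right of each panel, points coloured by plate and a line at the mean CPM + 1. Pmepa1, Tgfbi, Tgfbr1, Tmem119, Cx3cr1, Ccl6, Ccl9, Gdf15 and Marco do not overlap between the groups, while Smad7, Tnf and Ifit3 do.

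Genes of resting microglia that depend on TGFb rose in part. Of 27 listed genes 25 were tested, 6 rose, none fell and 19 did not pass, with a median log2 fold change of 0.98 against 0.01 for all genes. The share called was 24%, against 2.65% of all genes tested. Tmem119, a surface protein used to tell microglia from other macrophages, lay at 94.6 to 311 CPM with a median of 157 with TGFb. Without TGFb it lay at 3.08 to 51.8 CPM with a median of 16.3. The groups did not overlap, and the log2 fold change was 3.82 (SE 0.64, limma adjusted p = 2.2e-05). Cx3cr1, the fractalkine receptor, lay at 505 to 798 CPM with a median of 723 with TGFb and 9.43 to 111 CPM with a median of 65.8 without. It was also separate in every culture, at a log2 fold change of 3.40 (SE 0.76, limma adjusted p = 0.0023). Olfml3, a secreted glycoprotein, rose by 2.73 on the log2 scale, and the transcription factor gene Mef2a by 1.44, both without overlap. Sall1, a transcription factor of microglial identity, stayed under 5 CPM in all 19 cultures, and its log2 value of 0.81 did not pass. Neither did P2ry12, at 0.21.

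CC chemokines, which draw monocytes and other leukocytes, were the list with the largest share of calls among the 24 pathway lists drawn in the plot of calls per list. Of 12 listed genes 9 were tested, 5 fell and none rose, with a median log2 fold change of -2.09. That share was 55.6%, against 2.65% of all genes tested. Ccl6 lay at 26.5 to 44.2 CPM with a median of 31.3 with TGFb and at 148 to 659 CPM with a median of 403 without. Ccl9 lay at 33.7 to 80.2 CPM with a median of 58.4 with TGFb and at 397 to 695 CPM with a median of 491 without. In both genes every culture with TGFb was below every culture without, and the log2 fold changes were -3.53 (SE 0.34, limma adjusted p = 3.1e-12) and -3.17 (SE 0.30, limma adjusted p = 3.1e-12). Ccl7 fell by 3.32 and Ccl4 by 2.52 on the log2 scale. Ccl2, the main monocyte attractant, had a log2 fold change of -2.09 (SE 0.57, limma adjusted p = 0.021), and its call was lost without LPS_lo + TGFb replicate 6, 7 or 8, where the adjusted p in limma reached 0.075. Ccl3 did not overlap between the groups, at 31.8 to 108 CPM with a median of 52.4 with TGFb and 119 to 232 CPM with a median of 162 without, yet its adjusted p of 0.075 in limma missed the threshold. It was called with plate in the model. Ccl5 had the highest level of the list, with means of 15021 and 11687 CPM and a log2 value of 0.39 that did not pass.

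Inflammatory cytokines were not called. Of 17 listed, 11 were tested and none passed, with a median log2 fold change of -0.48. As 2.65% of all genes were called, a list of this size would hold few calls or none at that share. Of the log2 values 8 were below 0 and 2 above, while 49.6% of all genes were below 0. Tnf, a central cytokine of the LPS response, lay at 87.2 to 383 CPM with a median of 264 with TGFb and 136 to 402 CPM with a median of 307 without. The groups overlapped, and the log2 fold change was -0.25 (SE 0.57, limma adjusted p = 0.936). Il1b lay at 3.91 to 39.3 CPM with a median of 10.4 with TGFb and 4.54 to 38.8 CPM with a median of 26.4 without, also overlapping. Its log2 value was -0.98 (SE 0.52, limma adjusted p = 0.454), and it was called in middle wells alone. Il1a had a log2 value of -1.49 and was called on plate B alone. Il10, an anti-inflammatory cytokine, was low, at means of 0.869 and 5.65 CPM, and fell by 1.52 on the log2 scale, a call lost in 7 of the 19 fits that left out a single culture, with an adjusted p in limma of up to 0.073. It was the only gene called of 11 tested in the list of anti-inflammatory cytokines and decoys.

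Among 8 CXC chemokines tested, 1 rose. Cxcl16, a membrane-bound chemokine and scavenger of oxidised lipid, lay at 547 to 873 CPM with a median of 752 with TGFb and 193 to 334 CPM with a median of 263 without, with no overlap and a log2 fold change of 1.53 (SE 0.23, limma adjusted p = 1.8e-06). The neutrophil attractants Cxcl1, Cxcl2 and Cxcl3 had log2 values of 0.03, -0.48 and 0.44, and did not pass. Of 7 chemokine receptors tested, Cxcr4, the receptor for Cxcl12, rose by 3.64 on the log2 scale beside Cx3cr1, from a mean of 6.51 CPM to 86.2 CPM.

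A few genes of LPS sensing and NF-kB signalling fell. Of 32 genes of the TLR and NF-kB list, 31 were tested, none rose and 3 fell, with a median log2 fold change of -0.29. The called share was 9.68%, against 2.65% of all genes tested. Cd14 lay at 13.6 to 45.4 CPM with a median of 25.4 with TGFb and 56.8 to 175 CPM with a median of 94 without, separate in all cultures, and had a log2 fold change of -1.83 (SE 0.37, limma adjusted p = 0.00055). Bcl3, a nuclear partner of NF-kB, fell by 1.29 and Tnip3, an inhibitor of NF-kB signalling, by 2.12 on the log2 scale. Bcl3 was not called on plate B alone, at -0.78. Tlr2 had means of 178 and 88.8 CPM without overlap, but a log2 value of 1.04 (SE 0.40, limma adjusted p = 0.178). It was called higher in the fit on the 2 groups, on plate B alone and with a pseudocount of 5. Tlr4 had means of 10.4 and 13.2 CPM and a log2 value of -0.31.

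None of the 32 interferon-stimulated genes was called by limma, and their median log2 fold change was 0.01, the same as that of all genes. Ifit1, an antiviral RNA-binding protein, lay at 769 to 1473 CPM with a median of 1200.2 with TGFb and 1041 to 1581 CPM with a median of 1198 without. Ifit3 lay at 1628 to 3824 CPM with a median of 2767 with TGFb and 1019.6 to 2839 CPM with a median of 1707 without. Both overlapped, with log2 values of -0.10 and 0.61. Of 15 genes of MHC class I and its peptide processing none was called, at a median of 0.10, and of 10 tested for MHC class II and co-stimulation none, at a median of 0.42. H2-K1 had means of 6020.4 and 6479 CPM. As 2.65% of all genes were called, lists of this size would hold few calls or none at that share.

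C-type lectins of the Mincle cluster, receptors for microbial and damaged-cell ligands, and related lectins fell in 4 of 8 genes tested, with a median log2 fold change of -1.49. Among all genes tested 1.27% were called lower. Clec4a1 lay at 419 to 1135 CPM with a median of 800.2 with TGFb and at 2093 to 4856 CPM with a median of 3849 without. The groups were separate, and the log2 fold change was -2.27 (SE 0.53, limma adjusted p = 0.0037). Clec4e, which encodes Mincle, lay at 6.94 to 24.2 CPM with a median of 15.5 with TGFb and 12.3 to 143 CPM with a median of 73.6 without. Here the groups overlapped, and the log2 fold change was -1.97 (SE 0.57, limma adjusted p = 0.035). That call was lost in 10 of the 19 fits without a single culture, with an adjusted p in limma of up to 0.085. Clec4d fell by 1.18 and Clec7a, the beta-glucan receptor Dectin-1, by 1.01 on the log2 scale. Clec7a lay at the minimum fold change, and its call was lost in 8 of the 19 fits, and that of Clec4d with library pool in the model.

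Scavenger and phagocytic receptors moved in both directions, with 3 falls and 1 rise among 17 tested and a median log2 fold change of -0.28. Calls made up 23.5% of the list, against 2.65% of all genes tested. Marco, a scavenger receptor for bacteria and particles, lay at 48.5 to 96.1 CPM with a median of 61.9 with TGFb and 393 to 709 CPM with a median of 579 without. It did not overlap, with a log2 fold change of -3.09 (SE 0.38, limma adjusted p = 1e-08). Cd36, which takes up oxidised lipoprotein and fatty acids, fell by 1.66, and Scarb1, a receptor for high-density lipoprotein, by 1.68 on the log2 scale. Scarb1 was not called without LPS_lo + TGFb replicate 5, 6 or 8, with an adjusted p in limma of up to 0.14, and on plate B alone its log2 value was -0.28. Trem2, a lipid-sensing receptor of microglia, lay at 426 to 617 CPM with a median of 538 with TGFb and 129 to 379 CPM with a median of 211 without. These values were separate, and the log2 fold change was 1.33 (SE 0.30, limma adjusted p = 0.0025). The Fc receptor gene Fcgr3 was lower in all 8 cultures than in any of the 11, at a log2 value of -0.84 (SE 0.14, limma adjusted p = 9.3e-06) that did not reach the minimum fold change.

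Of 12 complement genes tested only Cfp, which encodes properdin and stabilises the alternative pathway convertase, was called, and it fell by 1.41 on the log2 scale, at 446 to 1804 CPM with a median of 879 with TGFb and 1556 to 3217 CPM with a median of 2328 without. The C1q genes had log2 values of 0.69, 0.56 and 0.40 for C1qa, C1qb and C1qc, and did not pass.

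Other large falls were in genes of varied function. Gdf15, a stress-induced member of the TGFb family, lay at 0 to 7.33 CPM with a median of 2.24 with TGFb and 37.8 to 232 CPM with a median of 118 without. Every culture with TGFb was below every culture without, and the log2 fold change of -5.19 (SE 0.56, limma adjusted p = 2.4e-10) was the largest fall among the genes called. Slc40a1, the iron exporter ferroportin, lay at 3.14 to 43.3 CPM with a median of 25.9 with TGFb and 123 to 368 CPM with a median of 225 without. It was separate too, at -3.38 (SE 0.43, limma adjusted p = 2.3e-08). Ier3, an immediate early gene, fell by 3.07, Pira2, an immunoglobulin-like receptor, by 3.46, and Ak4, a mitochondrial adenylate kinase, by 3.15 on the log2 scale. Cdc42ep2 fell by 3.20, Tmem171 by 2.93, and Sh2d3c by 3.06, of which Sh2d3c was not called without LPS_lo + TGFb replicate 8, at an adjusted p in limma of 0.051. Reads of Pira2 may be shared with its close relatives in the same receptor family.

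Genes of nitric oxide, arginine, itaconate and prostaglandin metabolism gave 3 falls and 1 rise among 13 tested, with a median log2 fold change of -0.52. Calls made up 30.8% of this list, against 2.65% of all genes tested. Irg1, the enzyme that makes itaconate, lay at 15.1 to 42.5 CPM with a median of 26.2 with TGFb and 33.8 to 188 CPM with a median of 108 without, and had a log2 fold change of -1.99 (SE 0.41, limma adjusted p = 0.00087). The groups overlapped, with 6 of 8 cultures below the lowest LPS_lo culture. Ptgs2, the inducible cyclooxygenase, fell by 1.96, and Ptgs1, the constitutive one, rose by 1.97 on the log2 scale. The call of Ptgs2 was lost with a pseudocount of 5 and on the plates that hold both groups. The haem-degrading enzyme gene Hmox1 fell by 1.02, near the minimum fold change, and was lost in 9 of the 19 fits without a single culture, where its log2 value lay between -1.12 and -0.90. The call of Ptgs1 was lost in 6 of them, with an adjusted p in limma of up to 0.092. Nos2 had a log2 value of -0.39 and did not pass. In the list of IL4-type markers only Cd36 was called of 8 tested, and Retnla and Chil3 had means under 5 CPM in both groups.

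Lipid handling was split, with 3 rises and 3 falls among 21 tested and a median log2 fold change of -0.43. Its called share was 28.6%, against 2.65% of all genes tested. Apoe, the main lipid carrier of the brain, lay at 18339.7 to 40517 CPM with a median of 26077 with TGFb and 4517 to 16915 CPM with a median of 7396 without. It did not overlap, with a log2 fold change of 1.72 (SE 0.30, limma adjusted p = 3.4e-05). Lpl, which frees fatty acids from triglycerides, lay at 482 to 1088 CPM with a median of 665 with TGFb and 990.1 to 4042 CPM with a median of 1917 without. Its log2 fold change was -1.61 (SE 0.38, limma adjusted p = 0.0052), with 7 of 8 cultures below the lowest LPS_lo culture. Apoc1, an apolipoprotein, rose by 2.09 on the log2 scale, beside the fall of Cd36. The sterol exporter gene Abcg1 had a log2 fold change of 1.26 (SE 0.38, limma adjusted p = 0.047). That call was lost in 13 of the 19 fits and with plate in the model. Of 20 disease-associated microglia genes tested, Apoe rose and Lpl, Clec7a and Ccl6 fell, with a median of -0.42.

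Glycolysis genes fell in 4 of 21 tested, while 1.27% of all genes were called lower. Of the 21 log2 values 19 were below 0, against 49.6% of all genes, with a median of -0.79. Pgk1, phosphoglycerate kinase, lay at 24.7 to 156 CPM with a median of 117 with TGFb and 186 to 468 CPM with a median of 286 without. These did not overlap, and the log2 fold change was -1.67 (SE 0.36, limma adjusted p = 0.0014). On plate B alone it was -0.95, under the minimum. Gapdh fell by 1.31, Ldha, which makes lactate, by 1.02, and Bnip3, a mitophagy receptor induced in hypoxia, by 1.53 on the log2 scale. All 3 calls were lost on either plate alone and with library pool in the model, those of Gapdh and Ldha also with plate in the model. Leaving out single cultures ended the call of Gapdh in 13, of Ldha in 9 and of Bnip3 in 6 of 19 fits. No cell cycle gene was called by limma of 28 tested, at a median of -0.48, while 2.65% of all genes were called. Of the 28 log2 values 23 were below 0, against 49.6% of all genes. In that list Top2a was called on plate B alone, and Ccnb1 there and with library pool in the model.

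Matrix genes rose in 5 of 21 tested, against 1.39% of all genes, and none fell, while the median log2 fold change was 0.08. Fn1, fibronectin, lay at 14.7 to 80.8 CPM with a median of 37.4 with TGFb and 1.07 to 6.76 CPM with a median of 4.06 without. The groups were separate, and the log2 fold change was 3.14 (SE 0.51, limma adjusted p = 1.1e-05). Serpine2, an inhibitor of serine proteases, rose by 2.09, Timp2, an inhibitor of metalloproteases, by 1.23, and the metalloprotease gene Mmp2 by 2.08 on the log2 scale, beside Tgfbi. On plate B alone Mmp2 had a log2 value of 3.63, and on plate D alone it was not tested. Its call was lost without the cultures under 2 M mapped reads, in the fit on the 2 groups, and on the plates that hold both. Itgb5, a subunit of a vitronectin receptor, was the only gene called of 14 integrin and adhesion genes tested, at 376 to 679.5 CPM with a median of 609.6 with TGFb and 82.9 to 275 CPM with a median of 136 without, with a log2 fold change of 1.90 (SE 0.32, limma adjusted p = 2.3e-05).

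**Figure D2:**
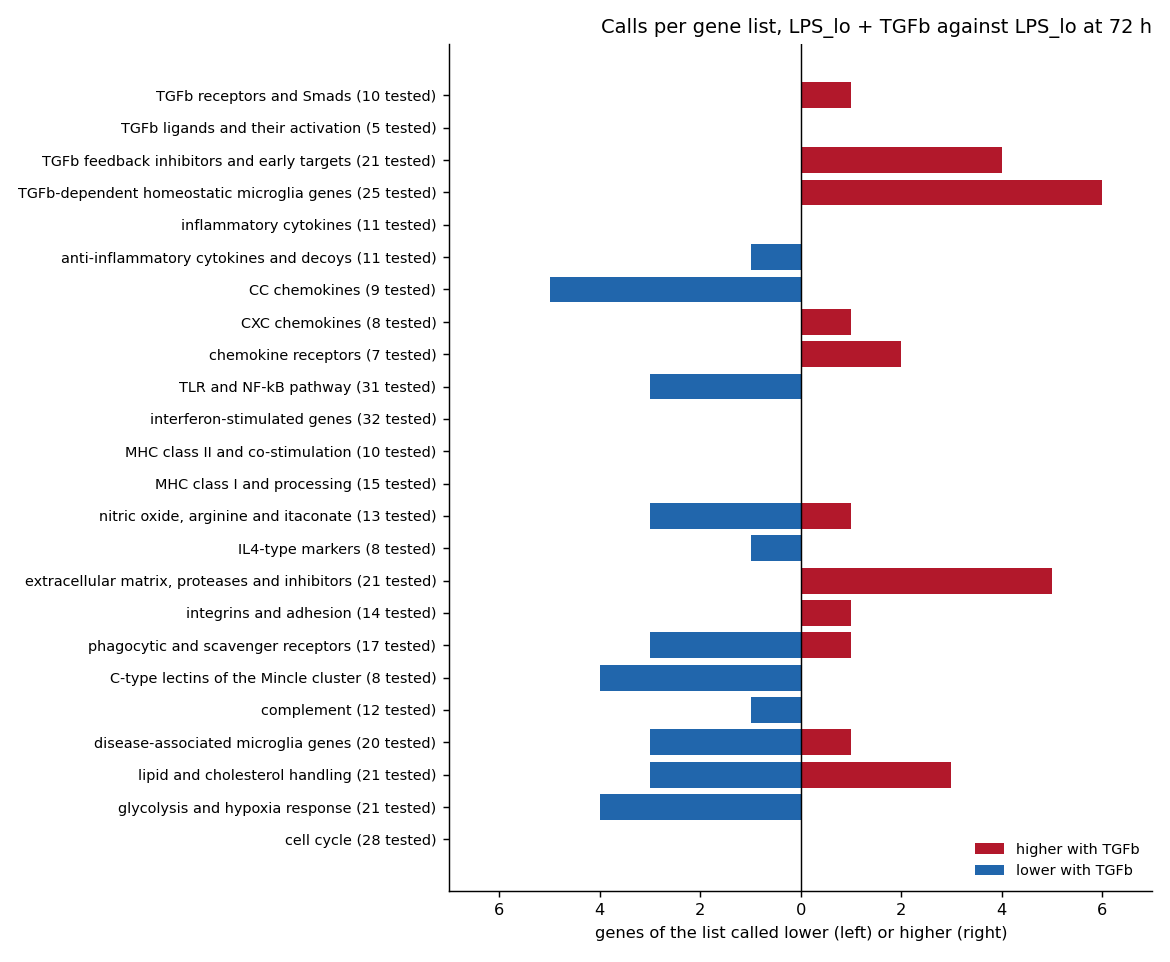
Number of genes called higher (red, to the right) or lower (blue, to the left) with TGFb in LPS_lo cultures at 72 h, for each of 24 pathway lists, with the number of genes tested beside the name. The homeostatic list has 6 rises and the CC chemokines 5 falls, while the interferon-stimulated genes have none of either.

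Promoter sequences were compared between all genes that rose and all genes that fell with TGFb. RefSeq promoter records on GRCm38.p6, taken as the 250 bases before each start, matched 117 of the 164 genes that rose and 117 of the 150 that fell, and 8419 of all genes tested. The AP-1 motif TGANTCA, searched on both strands, was in 9.38% of 160 promoters of genes that rose, 2.65% of 151 of genes that fell, 4.38% of 10740 of genes tested and 6.75% of all 32851. The NF-kB motif GGANTTTCC was in 1 of the 160 promoters of genes that rose, 1.99% of those of genes that fell and 1.07% of all. The repeated Smad box AGACAGAC was in 1.88%, 1.99% and 1.55%, the ISRE motif GAAANNGAA in 4.38%, 6.62% and 7.13%, and the Smad palindrome GTCTAGAC in none of either set and in 0.167% of all. Of 67 called genes among those named, 44 had a record, and AP-1 was in 4 of these. A match is a description of letters and not of a bound site. Adam19 and Trem2, which rose, and Ccl9, which fell, are shown with the AP-1 match in capitals, 5′ to 3′ on the strand of the gene. The Adam19 stretch is chr11:46055734-46055983 on the + strand, 1 of 3 starts of that gene, with the match beginning 131 bases before the start. That of Trem2 is chr17:48346151-48346400 on the + strand, with the match at 9 bases, and that of Ccl9 is chr11:83578637-83578886 on the - strand, with the match at 53 bases.
Adam19: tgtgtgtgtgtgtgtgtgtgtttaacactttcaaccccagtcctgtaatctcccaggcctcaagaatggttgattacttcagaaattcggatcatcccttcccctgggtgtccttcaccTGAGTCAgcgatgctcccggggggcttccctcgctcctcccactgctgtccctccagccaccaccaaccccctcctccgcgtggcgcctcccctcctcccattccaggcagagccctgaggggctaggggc
Trem2: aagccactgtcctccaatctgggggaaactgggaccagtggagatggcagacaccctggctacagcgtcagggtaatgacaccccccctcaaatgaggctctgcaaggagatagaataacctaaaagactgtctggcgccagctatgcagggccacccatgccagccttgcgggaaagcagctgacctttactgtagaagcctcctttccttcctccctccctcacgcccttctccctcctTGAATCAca
Ccl9: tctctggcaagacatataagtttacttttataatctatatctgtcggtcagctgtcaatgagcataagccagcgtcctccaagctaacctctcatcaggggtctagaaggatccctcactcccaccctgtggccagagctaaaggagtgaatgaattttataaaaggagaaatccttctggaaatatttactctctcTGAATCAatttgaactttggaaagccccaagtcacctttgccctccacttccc

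The annotated genes on GRCm38 lie at chr11:46055992-46147343 for Adam19, chr17:48346401-48354147 for Trem2 and chr11:83572919-83578636 for Ccl9, so each stretch ends before or at the annotated gene. Ccl9 and Ccl6, at chr11:83587882-83593087, are neighbours on chromosome 11, near Ccl4 at chr11:83662584-83664683. The lectin genes Clec4a1, at chr6:122921848-122934619, and Clec4e, at chr6:123281789-123289870, also share a stretch of chromosome 6, while Clec7a, at chr6:129461591-129472779, lies outside it.

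Genes that LPS itself raises or lowers were taken from the 13 LPS_hi cultures and the 25 untreated ones. Their means do not enter the log2 fold changes of LPS_lo + TGFb against LPS_lo, but both sets of calls came from the same fit and share its variance and its filter on low values. LPS_hi against untreated called 2502 genes (21.1%), 582 (4.92%) higher and 1920 (16.2%) lower. The median log2 fold change of all genes was -0.35, and with size factors 622 genes were higher and 1764 lower. A median of 7195 genes exceeded 5 CPM in the LPS_hi cultures and 8330 in the untreated ones. Edge or corner wells held 10 of the 13 LPS_hi and 15 of the 25 untreated cultures. The part of these differences in the calls was not tested. Of the 582 raised by LPS_hi, 58 fell with TGFb in LPS_lo, which is 9.97% of the raised genes and 38.7% of the 150 that fell, and 7 rose (1.20% and 4.27%). Of the 1920 lowered by LPS_hi, 84 rose with TGFb, 4.38% of the lowered genes and 51.2% of the 164 that rose, and 17 fell. Marco, Ccl7, Irg1, Cd14 and Clec4e were among the 58. The 7 that both LPS_hi and TGFb raised were AA467197, AI504432, Ch25h, Cpd, Cxcl16, F11r and Tgfbi. Across all 582 genes raised by LPS_hi the median log2 fold change with TGFb was -0.28, with 65.6% below 0 against 49.6% of all genes. Most genes raised by LPS_hi were thus not called for TGFb. Tnf had a log2 fold change of 3.61 (SE 0.42, limma adjusted p = 1.1e-10) with LPS_hi, Ifit3 one of 4.42 (SE 0.40, limma adjusted p = 8e-15), and Il1b one of 5.12 (SE 0.39, limma adjusted p = 2.7e-18). The number called for LPS_hi was 1320 with a pseudocount of 5.

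**Figure D3:**
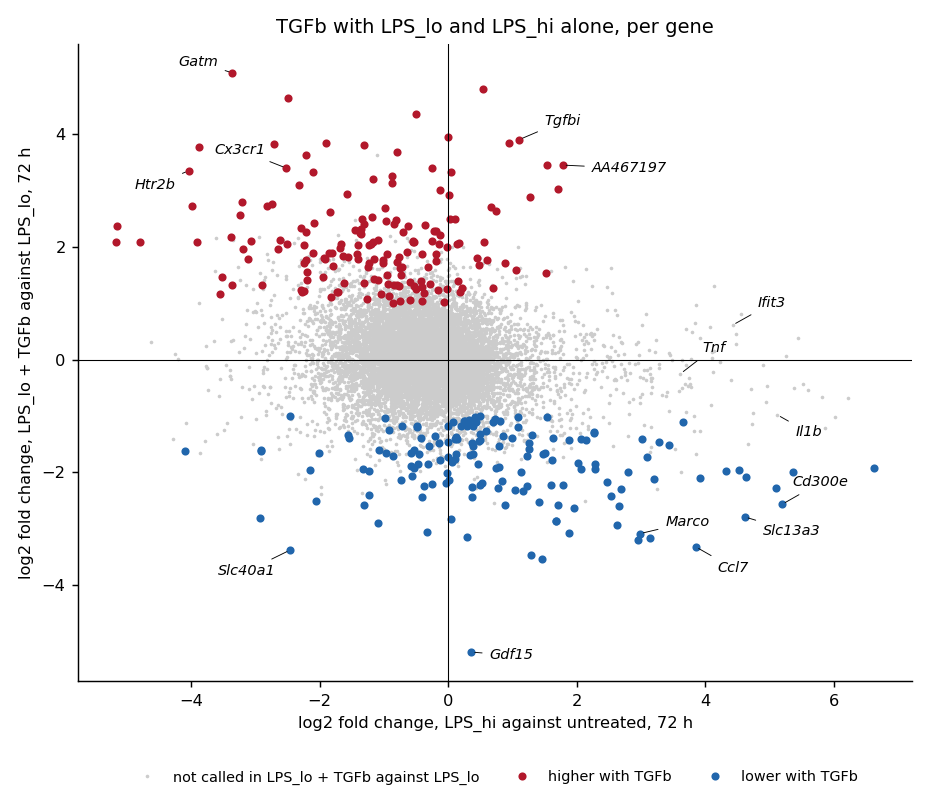
Log2 fold change of each gene with LPS_hi against untreated cultures (horizontal) and with LPS_lo + TGFb against LPS_lo (vertical) at 72 h, with genes called higher with TGFb in red, lower in blue and others in grey. Blue points include 58 genes that LPS_hi raised and red points 84 that it lowered, while Tnf, Il1b and Ifit3 lie far to the right and were not called for TGFb.

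TGFb without LPS was measured in other groups of the same fit, so its calls share the variance and the filter with those in LPS_lo. At 72 h the 4 TGFb cultures, all on plate B and in 1 library pool, differed from untreated cultures in 107 genes (0.904%), 83 (0.701%) higher and 24 (0.203%) lower. Of the 83, 45 also rose with TGFb in LPS_lo (54.2% of the 83 and 27.4% of the 164) and none fell. Of the 24, 16 also fell (66.7% of the 24 and 10.7% of the 150) and none rose. Pmepa1 had means of 289 ± 45.4 CPM (SD, n = 4) with TGFb and 29 ± 37 CPM (SD, n = 25) without, and a log2 fold change of 3.87 (SE 0.65, limma adjusted p = 5.1e-05). Tmem119 had a log2 fold change of 3.65 (SE 0.74, limma adjusted p = 0.0018) and Cx3cr1 one of 4.09 (SE 0.88, limma adjusted p = 0.0036). Ccl6 and Ccl9 fell without LPS too, by 1.75 and 1.75, and Slc40a1 by 2.57 on the log2 scale. Serpine2 reached 934 ± 125 CPM (SD, n = 4) with TGFb alone against 109 ± 73 CPM (SD, n = 25). P2ry12 rose by 2.27 with TGFb alone, from 2.36 to 11.7 CPM. Leaving out a single TGFb culture gave 54 to 72 genes, and plate B alone gave 559. The summed endothelial markers were 102.8 to 135.2 CPM in the TGFb cultures and 21.2 to 75.6 CPM in the untreated ones. The fibroblast and mural cell sum was 149.7 CPM in TGFb replicate 4 and 47.2 CPM in TGFb replicate 1, against at most 44.5 CPM in an untreated culture. The part of other cells in this comparison was not tested.

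After 24 h of TGFb alone, 455 of 11599 genes (3.92%) were called, 332 (2.86%) higher and 123 (1.06%) lower, in 8 cultures against 40 untreated. The TGFb cultures were of 2 cell lots, neither of them the lot used at 72 h, and 3 of the 6 plates with untreated cultures held no TGFb culture, so time and lot cannot be told apart. Among 11072 genes tested in both fits, 31 of 293 genes raised at 24 h also rose with TGFb in LPS_lo at 72 h (10.6% of the 293 and 20.0% of 155), and 3 fell. Of 123 lowered at 24 h, 21 also fell (17.1% of the 123 and 15.1% of 139). Pmepa1 had a log2 fold change of 1.63 (SE 0.20, limma adjusted p = 1.3e-07) and Tgfbr1 of 1.04 (SE 0.22, limma adjusted p = 0.0014) at 24 h. Tmem119, at 0.76 (SE 0.41, limma adjusted p = 0.278), was not called at that time. Gatm rose by 1.15, from a mean of 194 to 373 CPM, and Marco fell by 1.45, from 52.4 to 15.5 CPM. Ccl9 fell by 1.90, Ccl4 by 2.16 and Clec4a1 by 2.26 on the log2 scale. Unlike in LPS_lo, Tnf was called at 24 h, where it fell by 1.33, but the difference between these settings was not tested. With plate in the model 153 genes were called at 24 h, and with library pool 135.

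**Figure D4:**
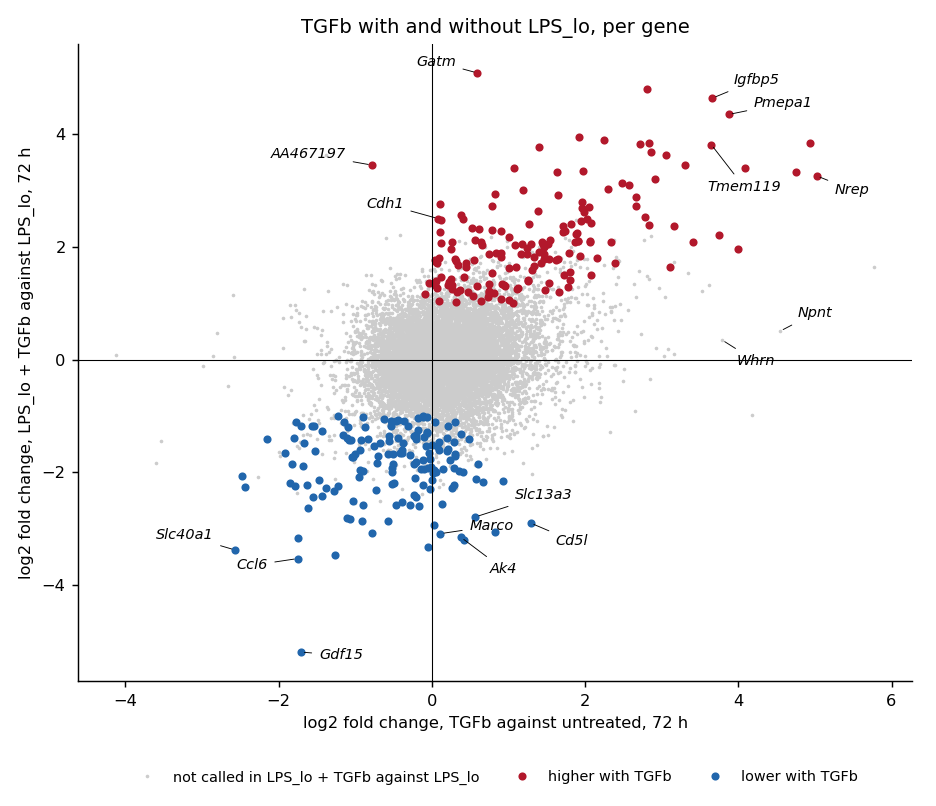
Log2 fold change of each gene with TGFb against untreated cultures (horizontal) and with LPS_lo + TGFb against LPS_lo (vertical) at 72 h, with genes called in the latter in red and blue. Pmepa1, Igfbp5 and Tmem119 rose in both, Ccl6 and Slc40a1 fell in both, and Npnt rose only where TGFb was given alone, a difference that passed its own test.

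The test of whether TGFb acts differently with and without LPS_lo called 16 genes (0.135%), 3 (0.0253%) higher and 13 (0.110%) lower with LPS_lo. Marco fell with TGFb in LPS_lo, but in cultures without LPS it was 34.3 ± 13.6 CPM (SD, n = 4) with TGFb and 36.4 ± 21.2 CPM (SD, n = 25) without, and the difference of log2 fold changes was -3.20 (SE 0.58, limma adjusted p = 0.0032). At 24 h, TGFb without LPS lowered Marco, as given above, and Slc13a3, by 1.33 on the log2 scale. Ak4 differed by -3.53 (SE 0.76, limma adjusted p = 0.027), but without LPS it was near 0, at means of 0.801 CPM with TGFb and 0.377 CPM without, and could not fall there. Slc13a3, a dicarboxylate transporter, differed by -3.36 (SE 0.78, limma adjusted p = 0.044), with means of 3.17 and 2.92 CPM without LPS, too low for a fall as large as that in LPS_lo. Cd5l, a secreted macrophage protein, fell in LPS_lo from a mean of 23.9 to 1.96 CPM and had means of 6.55 and 13.3 CPM without and with TGFb where LPS was absent, a difference of -4.19 (SE 0.81, limma adjusted p = 0.0054). A fall as large as that in LPS_lo was not possible from its untreated level either. Npnt, a matrix protein, reached 31 ± 7.6 CPM (SD, n = 4) with TGFb alone and stayed at 1.06 CPM on average with LPS_lo, a difference of -4.04 (SE 0.49, limma adjusted p = 9e-08). Whrn differed by -3.43 (SE 0.79, limma adjusted p = 0.044), a call lost with plate in the model, at an adjusted p in limma of 0.15. In the other direction AA467197 differed by 4.24 (SE 0.97, limma adjusted p = 0.041), with 30.6 to 150.5 CPM with a median of 95.9 in LPS_lo + TGFb, 0.133 to 20.2 CPM with a median of 9.81 in LPS_lo and a mean of 0.969 CPM with TGFb alone. Cdh1, the adhesion protein E-cadherin, and AI607873 differed by 2.42 (SE 0.53, limma adjusted p = 0.029) and 1.13 (SE 0.25, limma adjusted p = 0.029). Cdh1 was low, at 0 to 26.4 CPM in LPS_lo + TGFb, 0 to 0.849 CPM in LPS_lo and 0 to 0.434 CPM with TGFb alone. AI607873 was not called for TGFb in LPS_lo, where alternatives gave log2 values of 0.08 to 0.41. With TGFb alone it lay at 78.1 to 130.5 CPM, and in LPS_lo at 225.4 to 359.6 CPM. Spp1, osteopontin, differed by -1.64 (SE 0.39, limma adjusted p = 0.047), with means of 1116 CPM for TGFb alone, 601 untreated, 73.3 for LPS_lo + TGFb and 119 for LPS_lo.

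These counts rest on 4 cultures with TGFb alone. Leaving out 1 of them left 4 to 10 genes called, and plate B alone gave 489. Of the 10 differences named, only those of Marco and Npnt were called under every alternative that tested them. With plate in the model those of Ak4, Spp1, Whrn and Slc13a3 were lost, and those of AA467197, Cdh1, AI607873 and Cd5l were lost in at least 1 fit without a single TGFb culture. Gatm, the largest rise in LPS_lo, had means of 78 CPM with TGFb alone and 85.4 CPM untreated, but its difference of 4.49 (SE 1.17, limma adjusted p = 0.117) did not pass, and at 24 h it rose with TGFb alone. Pmepa1, Tmem119 and Tgfbi had differences of 0.48, 0.17 and 1.66 that did not pass.

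**Figure D5:**
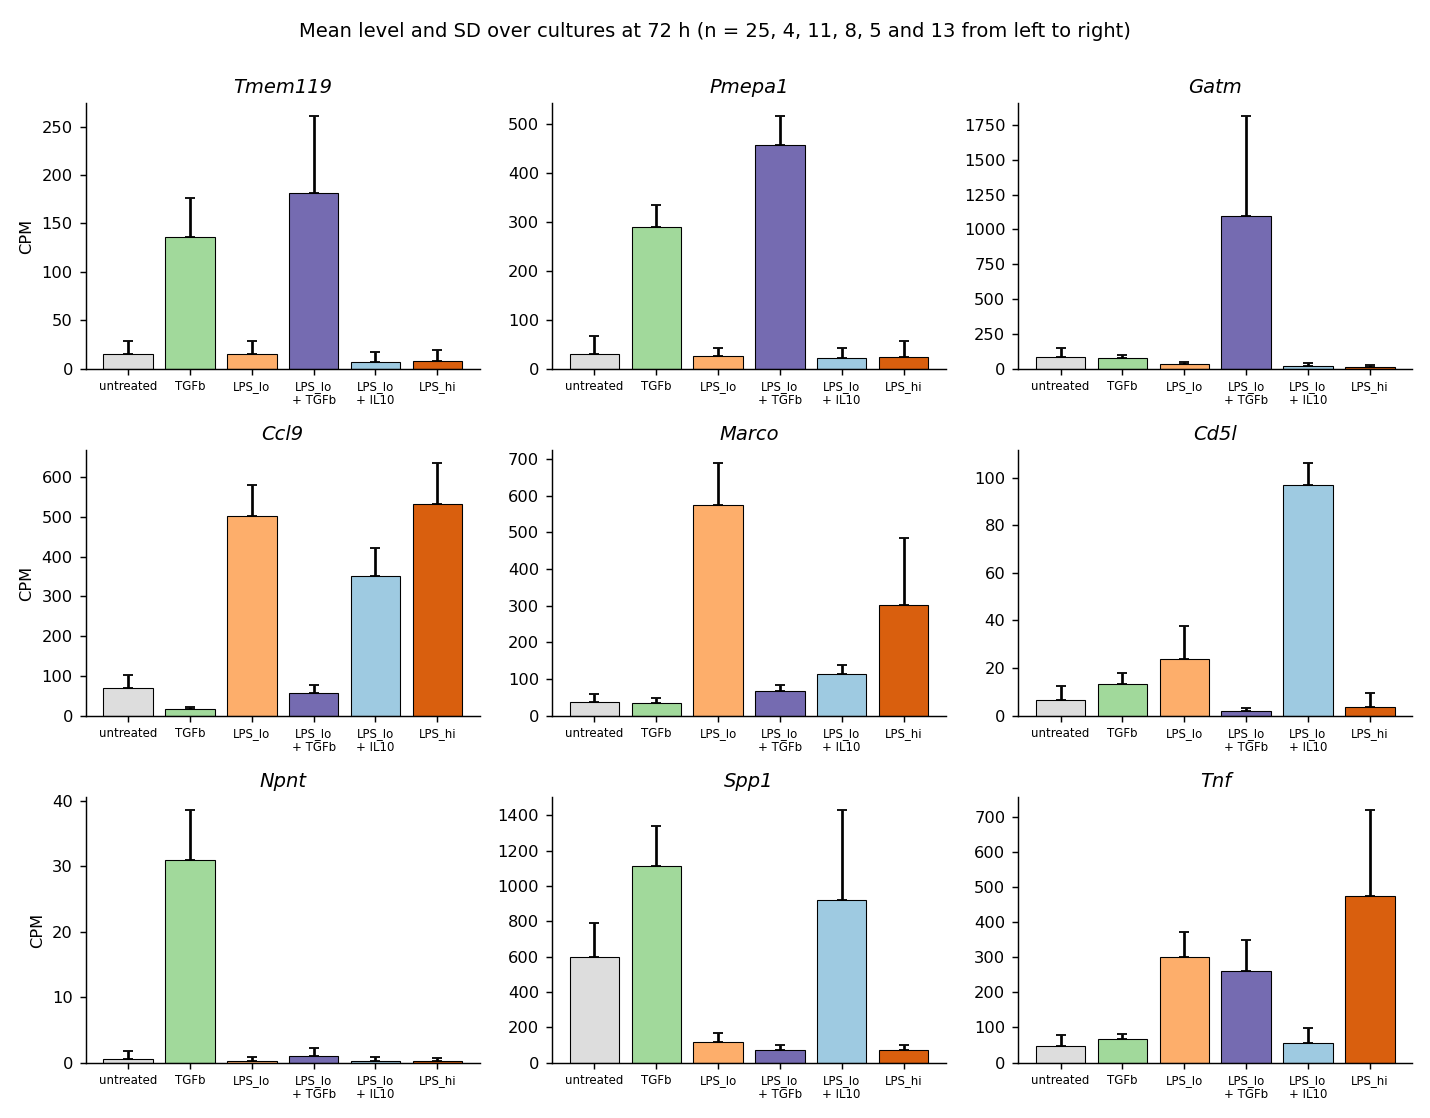
Mean CPM of 9 genes in 6 groups of cultures at 72 h, with bars from 0 and error bars of 1 SD over cultures. Tmem119 and Pmepa1 are high in both groups with TGFb, Gatm in LPS_lo + TGFb, Npnt with TGFb alone, and Tnf in the groups with LPS other than LPS_lo + IL10.

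IL10, another anti-inflammatory cytokine, was added to LPS_lo in 5 cultures on plates A and C, which hold no LPS_lo + TGFb culture. LPS_lo + TGFb differed from LPS_lo + IL10 in 444 genes (3.75%), 339 (2.86%) higher and 105 (0.887%) lower. Tnf had means of 262 CPM with TGFb and 55.7 ± 43.1 CPM (SD, n = 5) with IL10, a log2 fold change of 2.89 (SE 0.71, limma adjusted p = 0.0068). In Tnf, LPS_lo + IL10 replicate 4 lay at 1.47 CPM and the other 4 at 32.9 to 107 CPM. Il1b was also higher with TGFb, at 2.95 (SE 0.64, limma adjusted p = 0.0018). Ccl6 was lower with TGFb by a log2 fold change of -4.68 (SE 0.41, limma adjusted p = 1.4e-13), from a mean of 962 CPM with IL10, and Spp1 by one of -3.49 (SE 0.31, limma adjusted p = 1.4e-13). Marco had means of 67.3 and 113 CPM and did not pass, at -0.75 (SE 0.46, limma adjusted p = 0.429). Irg1 and Clec4a1 did not pass either, at -0.06 and -0.91. The split of 339 to 105 became 261 to 140 with size factors, which moved the median of all genes by -0.12 from 0.27. Without LPS_lo + IL10 replicate 4 or 5 the count was 221 or 254, and with library pool in the model it was 197. No plate holds both groups, so plate and treatment cannot be told apart here.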

How the data were processed

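RNA of single cultures was amplified and sequenced by the authors. Per the study's methods, the authors quantified transcripts with Salmon 0.7.1 on Ensembl build 81, while the labels list genome build mm8. The deposited values are read here as CPM, although the study calls them TPM, since the authors divided summed reads by mapped reads with no step for length, and most low values were multiples of a step. Each culture summed to 997520 to 999835. Whole reads were not recovered. Between 69.5% and 86.2% of low values lay within 0.1 of whole reads at the depth found from the steps of the values, so depth, 1.05 to 19.0 M (1000000) mapped reads, is an estimate.

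Of 784 columns 114 were used, and none disagreed with its label. Genes above 5 CPM in at least 4 cultures of a fit were kept. Values were taken as log2(CPM + 1) and fitted in R 4.3.3 with limma 3.58.1, with the trend option, as 1 fit of 66 cultures in 6 groups at 72 h (60 residual degrees of freedom, median prior 9.51) and another fit at 24 h. P-values were adjusted by Benjamini-Hochberg over all genes of a fit. The fits were tested on simulated data. Tables came from pandas 2.3.3, rank-sum tests from scipy 1.17.1 and figures from matplotlib 3.10.9, all run in Python 3.11.15.

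Named genes were the 12 largest rises and 12 largest falls among called genes with a mean of at least 5 CPM in the higher group, the same direction and an adjusted p under 0.05 with plate in the model, up to 4 called members and the first 3 members of each pathway list, markers the study names, and up to 6 interaction genes per direction. Results of some members of the lists are not reported here. Members and lists were chosen with earlier results of these data known. Alternatives were pseudocounts of 0.5 and 5, no filter, a stricter filter (above 10 CPM in at least 8 cultures), size factors, no minimum fold change, plate or library pool in the model, no cultures under 2 M mapped reads, a fit on the 2 groups, plates that hold both groups, and leaving out single cultures. Single plates, middle wells and the rank-sum test with Benjamini-Hochberg adjustment were added after seeing the data. The study names a rank-sum test with Bonferroni correction, which over 11838 genes can give no p below 0.313 and so can call none. Its own model for single genes was not repeated.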

Additional observations from a re-analysis of the deposited data

Results flagged for a closer look

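In 8 of 130 named genes, 1 LPS_lo + TGFb culture lay far from the other 7. The measure was its gap to the nearest of them over the range of the group, in log2(CPM + 1). For normally spread values, chance flags about 1 in 20 groups. Replicate 8, on plate D, was the lowest in Sox4 at 9 CPM with the nearest at 47.5 CPM, in Tnf at 87.2 CPM with the nearest at 231 CPM, in Tlr1 at 4.89 CPM with the nearest at 21.8 CPM, and in Ifit1 at 769 CPM with the nearest at 1083 CPM. Replicate 6, also on plate D, was the lowest in Gch1 at 6.79 CPM with the nearest at 21.8 CPM, and the highest in Retnla at 0.715 CPM with the nearest at 0.257 CPM. Replicate 4, on plate B, was the highest in Tgfb2 at 2.27 CPM with the nearest at 0.266 CPM, and replicate 5, on plate D, in Il1r2 at 2.30 CPM with the nearest at 0.514 CPM. As 8 of 130 genes is near 1 in 20, chance could give these flags. Tgfb2, Il1r2 and Retnla were at 0 in several of these cultures, where a few reads can give a flag. For them the rate of 1 in 20 need not hold. For replicate 8, chance, a poorer library and the state of that well were not told apart. Its depth was 3.89 M mapped reads, and its mean r with its group, 0.773, was the lowest of the 8.

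The effect of TGFb differed between cultures with and without LPS_lo by a limma test of that difference in 10 of the named genes. The differences on the log2 scale were 4.24 for AA467197, 2.42 for Cdh1, 1.13 for AI607873, -4.19 for Cd5l, -4.04 for Npnt, -3.53 for Ak4, -3.43 for Whrn, -3.36 for Slc13a3, -3.20 for Marco and -1.64 for Spp1. The 4 cultures with TGFb alone were on plate B, which also holds cultures of the other 3 groups of this test. Within plate B the difference was -3.20 (limma adjusted p = 0.0095) for Npnt and -2.57 (limma adjusted p = 0.16) for Whrn, which was not called there. The cause was not tested. Neither the label nor the study's table of conditions gives a dose of TGFb in the combination, so a lower dose with LPS_lo and a change in the response to TGFb cannot be told apart.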

How the results depend on the processing

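No paired analysis was possible because the labels number libraries and not replicates. Plate was used as a term instead and gave 398 genes. The 314 genes called with TGFb in LPS_lo stayed within 1.5 times under 31 of 34 alternatives. The others were plate B alone (880), plate D alone (46) and middle wells alone (553). Leaving out 1 of the 19 cultures gave 265 to 318. With the rank-sum test and Benjamini-Hochberg adjustment 370 genes were called, of which 252 were shared.

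A pseudocount of 5 gave 25 genes for the interaction, 1320 for LPS_hi and 240 for TGFb at 24 h. No filter gave 34 for the interaction and 192 for TGFb at 72 h. Plate B alone gave 489 and 559 for these. Plate in the model gave 153 for TGFb at 24 h, library pool gave 135 there and 197 against LPS_lo + IL10, and no minimum fold change gave 913 at 24 h. Leaving out 1 culture gave 4 to 10 for the interaction, 54 to 72 for TGFb at 72 h and 221 to 619 against LPS_lo + IL10. The cause was not tested.

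Of 67 called named genes, none changed direction, 19 were called under every alternative, and 16 lost the call under an alternative other than a single plate, of which 3 lost it with plate in the model. The 16 were Sh2d3c, Ski, Il10, Ccl2, Ptgs1, Ptgs2, Hmox1, Mmp2, Scarb1, Clec4e, Clec4d, Clec7a, Abcg1, Bnip3, Gapdh and Ldha. Of 58 uncalled named genes, 10 were called under some alternative and 20 changed sign. Genes that failed a stricter or single-plate filter gave no value there. Low depth in some cultures, from 1.05 M mapped reads, limits what can be said of genes near 5 CPM.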

Other observations

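Of 8 markers and hub genes that the study itself names, chosen there on these samples, Clec4e alone was called, and the median log2 fold change was -0.83 against 0.01 for all genes. Spp1, which encodes the secreted protein osteopontin, was much higher after 24 h of TGFb alone, at 2659 ± 1290.3 CPM (SD, n = 8) against 886 ± 633 CPM (SD, n = 40), with a log2 fold change of 1.69 (SE 0.35, limma adjusted p = 0.0012). Cd5l was highest with LPS_lo + IL10 among the 6 groups at 72 h, at 96.8 ± 9.27 CPM (SD, n = 5), against a mean of 1.96 CPM with LPS_lo + TGFb. The log2 fold change of LPS_lo + TGFb against LPS_lo + IL10 was -5.14 (SE 0.65, limma adjusted p = 3.8e-08) for Cd5l, and no plate holds both groups.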
